A study of Mus musculus with 64 samples.

Results

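Gene expression was compared between Tg2576 and wild-type mice in the prefrontal cortex of animals that had received vehicle only. The comparison took the 8 prefrontal arrays labelled vehicle and transgene-positive and the 8 labelled vehicle and transgene-negative, which are 16 of the 64 arrays of the study. All mice were 4 months old by their labels and of the B6SJLF1 background, the first-generation cross of C57Bl/6 and SJL, and the wild-type animals were littermates without the transgene. Every animal carried an implanted pump that infused under the skin for 28 days. The pump held vehicle in these 16 animals, and the PDE9A inhibitor PF-04447943 in the other prefrontal groups. The design gives 8 mice per group, so each array was taken as 1 animal. The tissue is labelled prefrontal cortex, while the design text calls it frontal cortex. The question the comparison addresses is how the cortical transcriptome of this amyloid model differs from that of its littermates without the inhibitor.

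Tg2576 mice carry a human amyloid precursor protein gene with a mutation found in families with early Alzheimer's disease, driven by prion protein gene sequences. The precursor is cut by beta- and gamma-secretase into amyloid-beta peptides, which these mice deposit as plaques only later in life. Cholesterol in the brain is made locally, because plasma lipoproteins do not cross the blood-brain barrier. The genes of its synthesis are switched on together by the transcription factor SREBP-2 when sterols in the endoplasmic reticulum are low.

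After a filter on low levels, 12932 genes were tested with limma, and none passed an adjusted p of 0.05. The smallest adjusted p was 0.119. At an unadjusted p under 0.05 there were 1563 genes (12.1% of those tested), of which 1140 were higher in Tg2576 (8.82%) and 423 lower (3.27%). The words higher and lower therefore describe group means below, and no single gene difference passed the correction. All differences are Tg2576 minus wild-type on the log2 intensity scale, where the median standard error of a gene was 0.0806. The median difference over all genes was 0.0467, and 67.6% of genes lay above 0. This general shift was not the same at every level: with the genes in 10 bins of rising level, the median difference was -0.0491 in the lowest bin, 0.0728 in the fifth and 0.0268 in the highest. The split of higher against lower genes depended on how arrays were scaled. Quantile normalization of the prefrontal arrays gave 604 higher and 729 lower genes, and centring each array on its median gave 604 and 460. The interquartile range of log2 values per array was 3.69 ± 0.15 on the Tg2576 arrays against 3.59 ± 0.13 on the wild-type arrays (SD, n = 8 each). Over all 16 arrays that difference of 0.109 did not exceed the spread between arrays (exact two-sided permutation test, p = 0.136). The range was wider in replicates 1 to 4 than in 5 to 8 of either genotype (means of 3.82 against 3.57 in Tg2576 and 3.67 against 3.5 in wild-type mice), and the labels name no batch for these numbers. In replicates 1 to 4 every Tg2576 array (3.77 to 3.90) lay above every wild-type array (3.51 to 3.75), a difference of 0.148 (exact two-sided permutation test, p = 0.0286, the smallest that 4 against 4 allow). In replicates 5 to 8 the difference was 0.0699 (exact permutation p = 0.257). With the range of each array as a covariate the split was 579 higher and 697 lower.

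**Figure D1:**
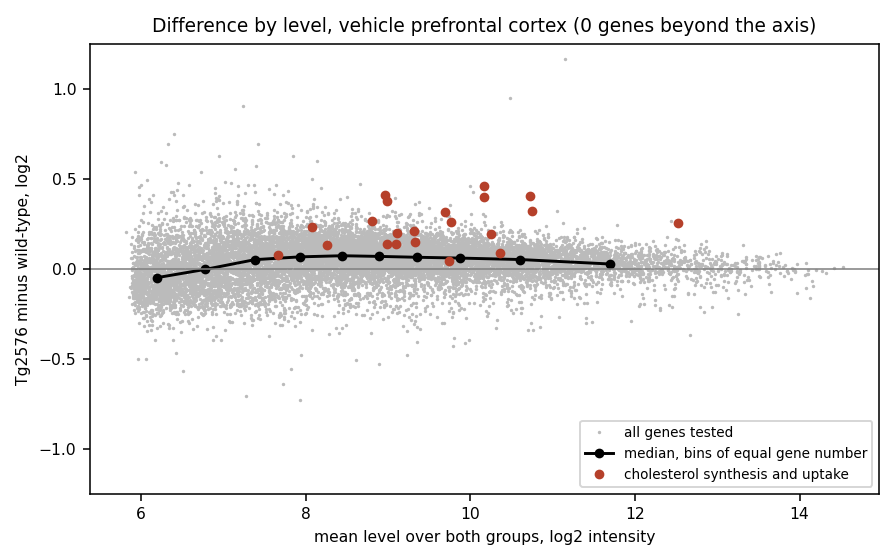
Difference between Tg2576 and wild-type mice (vertical axis, log2) against the mean log2 intensity of both groups (horizontal axis) for each of the 12932 genes tested in vehicle prefrontal cortex; the black line joins the medians of 10 bins of equal gene number. The medians run from -0.0491 in the lowest bin to 0.0728 in the fifth, and all 21 cholesterol genes (red) lie above 0.

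The tissue label and the dissection were examined through marker genes. Of the 9 markers listed for excitatory cortical neurons 8 were tested, and their mean level per array was 10.93 ± 0.12 on the Tg2576 arrays against 10.91 ± 0.34 on the wild-type arrays (SD, n = 8 each). Markers of striatal neurons, such as the dopamine receptors Drd1 and Drd2 and the opioid precursor Penk, varied far more. Their mean level over 10 genes ran from 8.25 through a median of 8.95 to 10.98 in Tg2576, and from 8.26 through 8.76 to 11.10 in wild-type mice. Both ranges overlap almost fully. Wild-type replicate 5 had the highest striatal level (11.10) together with the lowest excitatory level (10.10). Tg2576 replicates 6 and 8 had the next highest striatal levels (10.98 and 10.35). These 3 arrays stood apart from the other 13, and the results of the cholesterol, myelin, astrocyte, homeostatic microglia and endothelial lists below are given with and without them. Without them 2555 genes had an unadjusted p under 0.05 (14.6% of all genes higher and 5.14% lower), 70.7% of genes lay above 0, and again none passed the correction.

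**Figure D2:**
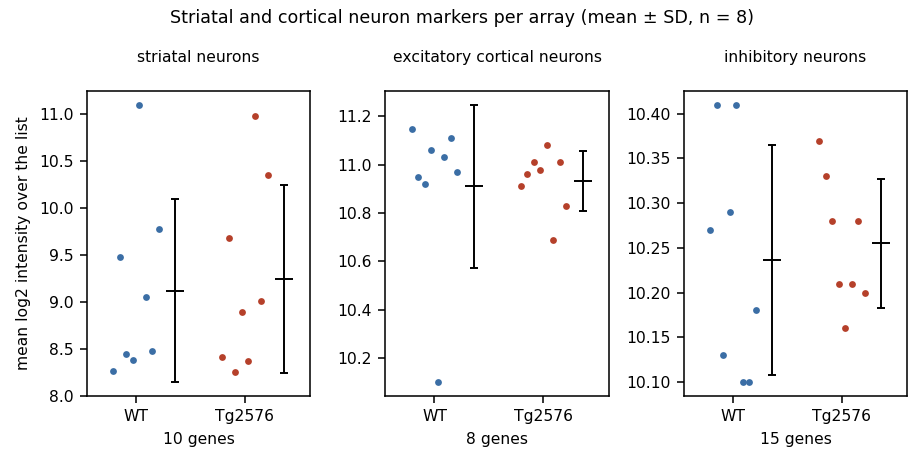
Mean log2 intensity per array (vertical axis) of the marker lists for striatal neurons, excitatory cortical neurons and inhibitory neurons in wild-type (blue) and Tg2576 (red) vehicle prefrontal cortex; each point is 1 array in replicate order and the black bar is the mean ± SD of 8 arrays. Striatal levels reach 11.10 and 10.98 on single arrays of either genotype, and the array at 11.10 has the lowest excitatory level, 10.10.

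The genes of cholesterol synthesis and uptake were higher in mean throughout. Of 26 genes listed 21 were tested, and all 21 had a higher mean in Tg2576, with a median difference of 0.235 against 0.0467 over all genes. At an unadjusted p under 0.05, 13 of the 21 were higher and none lower, where 8.82% of all tested genes were higher, and none of the 21 passed the correction. Under other settings some did. With array weights, and with replicates 1 to 4 against 5 to 8 as a block, these were Fdft1 and Stard4 (limma, adjusted p of 0.0186 to 0.0442). With each replicate number as a block they were Fdft1, Fdps and Nsdhl (limma, adjusted p = 0.0453 each). Without Tg2576 replicate 6 it was Fdft1 alone (limma, adjusted p = 0.0441). The mean level of the 21 genes ran from 9.42 through a median of 9.73 to 9.79 in Tg2576, and from 9.33 through 9.42 to 9.60 in wild-type mice. In Tg2576 only replicates 6 and 7 (9.42 and 9.54) lay within the wild-type range, and the other 6 arrays lay above it. The list was chosen with earlier results of these data known and is described here without a test of its own. Among the 21 other pathway lists the medians ran from -0.0917 to 0.0675.

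Within the pathway the largest differences were those of Fdps, Stard4, Fdft1 and Sqle. Fdps makes farnesyl pyrophosphate, the last precursor shared with protein prenylation. Its level was 10.16, 10.36 and 10.70 (lowest, median and highest of the 8 Tg2576 arrays), and 9.59, 9.98 and 10.15 in wild-type mice. The groups did not overlap, and the difference was 0.46 ± 0.11 (SE; 95% interval 0.23 to 0.69; limma, adjusted p = 0.236). Fdft1, squalene synthase, is the first enzyme committed to sterols. It stood at 10.55, 10.99 and 11.05 in Tg2576 and at 10.39, 10.49 and 10.75 in wild-type mice. Tg2576 replicate 6 was the only transgenic array inside the wild-type range, and the difference was 0.40 ± 0.09 (1.32-fold; adjusted p = 0.153). Sqle, squalene epoxidase, carries out a rate-limiting oxidation. Its values were 10.16, 10.36 and 10.59 in Tg2576 and 9.81, 9.97 and 10.12 in wild-type mice, again without overlap, and it differed by 0.40 ± 0.09 (adjusted p = 0.184). Over all genes, 9 had every Tg2576 array above every wild-type array (0.0696% of those tested), and Fdps and Sqle were among these 9.

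Stard4, which is no enzyme of the pathway but carries cholesterol between membranes, was higher by 0.41 ± 0.11 (adjusted p = 0.281). The other members differed less. Hsd17b7, Msmo1 and Nsdhl act in the removal of methyl groups from the sterol ring and were higher by 0.38 ± 0.13, 0.32 ± 0.09 and 0.32 ± 0.08. Hmgcs1 makes the precursor of mevalonate and was higher by 0.26 ± 0.08, with levels of 12.44, 12.68 and 12.81 against 12.24, 12.39 and 12.54. Its next brightest probe sets differed less, by 0.13 and 0.09. A dimmer one differed by 0.29, and one below the filter by 0.48. The groups overlapped for each of these 5 genes. Idi1, which isomerises isopentenyl pyrophosphate, was higher by 0.26 ± 0.12. Tm7sf2 (0.27 ± 0.08) encodes a sterol reductase and Ebp (0.20 ± 0.10) a sterol isomerase of the pathway. Among regulators, Srebf2, which encodes SREBP-2 itself, was higher by 0.19 ± 0.07, and Insig1, which holds the SREBP escort in the endoplasmic reticulum, by 0.21 ± 0.09. Together with Fdps, Fdft1 and Sqle these make the 13 genes with an unadjusted p under 0.05. The remaining 8 did not reach it: Mvd (0.24 ± 0.13), Mvk (0.13 ± 0.08), Pmvk (0.14 ± 0.10), Lss (0.07 ± 0.07), Cyp51 (0.15 ± 0.10), Dhcr7 (0.14 ± 0.09), Scap (0.09 ± 0.05) and Sc5d (0.05 ± 0.17). Sc5d, a sterol desaturase, was the least certain of them, and its difference turned to -0.0753 with the signal range as a covariate. The other 5 genes listed were not analysed here.

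The size of the cholesterol difference moved with one property of the arrays. With the signal range of each array as a covariate, the list's median was 0.103, with 20 of 21 genes above 0 and 10 higher at an unadjusted p under 0.05, where 4.48% of all genes were. The part of the signal range in the result was not tested beyond this fit. Without the 3 arrays with high striatal markers the median was 0.262, with 21 of 21 above 0 and 15 higher at an unadjusted p under 0.05. The share of all genes was larger there as well, at 14.6% against 8.82%. In replicates 1 to 4 the mean difference over the list was 0.263, and in replicates 5 to 8 it was 0.22.

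**Figure D3:**
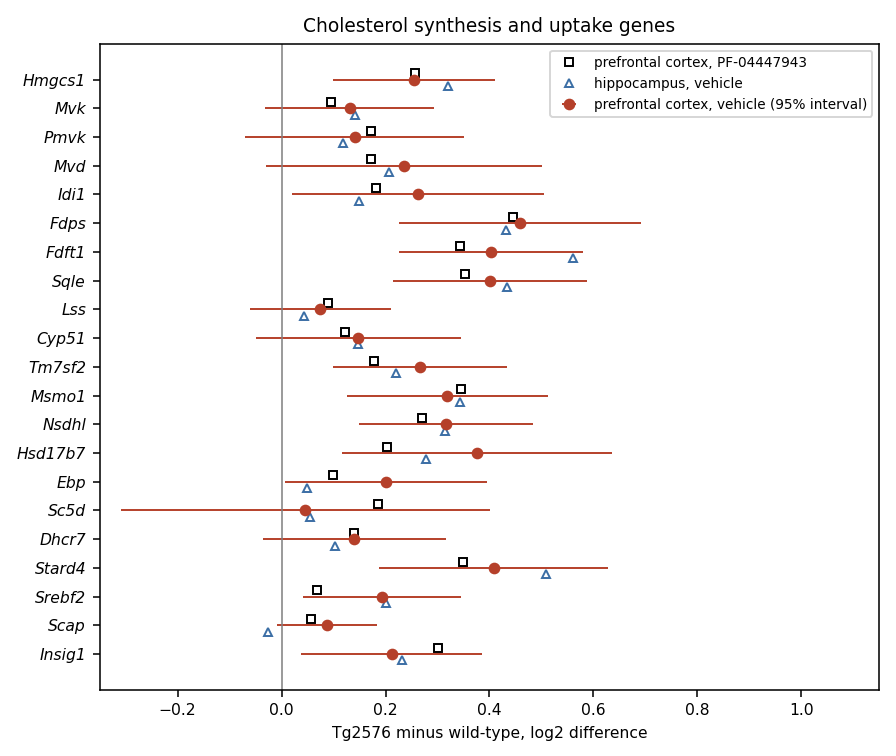
Difference between Tg2576 and wild-type mice (horizontal axis, log2) for the 21 cholesterol genes tested, in pathway order with transport and regulators last; red points with 95% intervals are vehicle prefrontal cortex, open squares the PF-04447943 prefrontal groups and open triangles vehicle hippocampus. All 21 red points lie above 0, from 0.05 for Sc5d to 0.46 for Fdps.

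The same 21 genes were read in the other groups of the study. In the prefrontal cortex of mice given PF-04447943, which are other animals of both genotypes, 21 of 21 were higher in Tg2576 with a median of 0.183, and 9 had an unadjusted p under 0.05 (2.68% of all genes were higher there). The labels do not say whether prefrontal and hippocampal arrays of 1 number came from 1 mouse. Pttg1 and Cap1, described at the end, lay on the same side of log2 10 in both regions at all 8 numbers of each genotype. The hippocampal values are therefore not taken as values of separate animals. In vehicle hippocampus 20 of 21 were higher with a median of 0.207, and 13 had an unadjusted p under 0.05 (1.9% of all genes). Fdft1 differed by 0.34 in the PF-04447943 groups and by 0.56 in hippocampus, where it was the only gene of 12966 to pass the correction (0.00771% of those tested; limma, adjusted p = 0.00622). In the tests of the difference between comparisons, none of the 21 had an unadjusted p under 0.05, either against the inhibitor groups or against hippocampus. For Fdft1 these differences of differences were 0.06 ± 0.12 against the PF-04447943 groups and -0.16 ± 0.13 against hippocampus. These tests do not show that the effects are alike.

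Promoter sequences of these genes are shown because SREBP-2 acts with the CCAAT-binding factor NF-Y at sterol-responsive promoters. The 250 bases before the start site were taken from RefSeq on GRCm38.p6, in which 17 of the 21 genes had an entry that could be used. They were searched on both strands for TCACNCCAC, a sterol regulatory element core, and for CCAAT, the NF-Y box. Matches in either orientation are in capitals, so a box on the opposite strand appears as its complement, read backwards. The NF-Y box was found for 16 of the 17 genes and in 16 of their 21 promoters, against 33.8% of all 32851 promoters of this length, and TCACNCCAC for 1 of the 17, against 1.05%. The 4 promoters printed belong to genes with differences of 0.26 to 0.38. They are not all of that range: Idi1 and Tm7sf2, with 2 and 1 CCAAT boxes, lie in it and are not printed. Matches of letters describe the window and do not show binding.
Hmgcs1 (chr13:119690101-119690350, plus strand): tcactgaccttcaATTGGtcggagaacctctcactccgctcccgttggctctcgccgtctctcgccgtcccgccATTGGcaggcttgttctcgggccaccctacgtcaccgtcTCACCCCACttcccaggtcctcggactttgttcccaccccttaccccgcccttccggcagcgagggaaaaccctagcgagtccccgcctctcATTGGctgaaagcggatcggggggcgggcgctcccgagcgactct
Msmo1 (chr8:64733579-64733828, minus strand): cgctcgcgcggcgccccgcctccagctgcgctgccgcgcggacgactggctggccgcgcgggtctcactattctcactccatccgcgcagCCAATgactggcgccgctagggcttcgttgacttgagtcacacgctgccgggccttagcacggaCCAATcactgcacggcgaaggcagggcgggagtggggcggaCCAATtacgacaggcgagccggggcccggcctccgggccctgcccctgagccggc
Nsdhl (chrX:72918271-72918520, plus strand): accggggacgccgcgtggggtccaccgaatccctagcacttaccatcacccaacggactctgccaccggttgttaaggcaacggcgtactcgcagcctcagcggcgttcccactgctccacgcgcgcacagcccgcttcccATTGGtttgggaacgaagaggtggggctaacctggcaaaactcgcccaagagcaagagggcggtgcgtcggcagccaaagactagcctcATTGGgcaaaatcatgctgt
Hsd17b7 (chr1:169969206-169969455, minus strand): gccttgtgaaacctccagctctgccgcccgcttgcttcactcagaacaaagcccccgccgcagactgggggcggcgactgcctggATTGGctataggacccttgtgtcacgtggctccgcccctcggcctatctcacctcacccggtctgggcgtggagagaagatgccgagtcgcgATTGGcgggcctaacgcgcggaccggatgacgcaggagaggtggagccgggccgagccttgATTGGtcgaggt
Hmgcs1 held 3 CCAAT boxes and the 1 TCACNCCAC match of the list, which begins 137 bases before the start. Msmo1 and Hsd17b7 held 3 CCAAT boxes each, and Nsdhl held 2. Promoters of Fdps, Fdft1, Sqle and Stard4 are not shown.

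Outside this pathway, Gin1 had the smallest p of all genes. Gin1 encodes a protein related to retroviral integrases, and its level was 7.35, 7.44 and 7.62 in Tg2576 against 6.92, 7.17 and 7.36 in wild-type mice. The ranges met only at their edges, and the difference was 0.30 ± 0.06 (1.23-fold; adjusted p = 0.119). In the PF-04447943 groups it was 0.06 and in hippocampus 0.09. Gtf3c2, a subunit of the RNA polymerase III factor TFIIIC, was higher by 0.15 ± 0.03, and Secisbp2, which binds the selenocysteine insertion element of mRNAs, by 0.17 ± 0.04. Mcu, the pore of the mitochondrial calcium uniporter, was higher by 0.19 ± 0.05. Msh3 (mismatch repair, 0.22 ± 0.05), Whamm (actin nucleation, 0.31 ± 0.08), Serac1 (phosphatidylglycerol remodelling, 0.21 ± 0.05), Tmem35b (0.25 ± 0.06) and 3110039M20Rik (0.26 ± 0.06) completed the 12 higher genes of smallest p. The adjusted p of these 9 genes lay between 0.119 and 0.236. The remaining genes without overlap on the higher side were Nudt2 (0.18), Tmem150c (0.28), Mto1 (0.16), Ndst3 (0.39), Atp8a1 (0.23), Nbr1 (0.08) and Prmt9 (0.16).

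Among genes lower in Tg2576, Qk came first. Qk encodes quaking, an RNA-binding protein that controls splicing and mRNA stability of myelin genes in oligodendrocytes and is also present in astrocytes. Its values were 11.19, 11.33 and 11.52 in Tg2576 against 11.56, 11.61 and 11.73 in wild-type mice. Every Tg2576 array lay below every wild-type array, and the difference was -0.29 ± 0.06 (0.816-fold; adjusted p = 0.119). All 7 of its probe sets had a lower mean in Tg2576, from -0.10 to -0.29, and 3 of the 7 had an unadjusted p under 0.05. The difference was -0.07 in the PF-04447943 groups and -0.26 in hippocampus. Fgfr2, a fibroblast growth factor receptor of oligodendrocytes and astrocytes, had levels of 9.10, 9.17 and 9.35 against 9.33, 9.47 and 9.53. A single wild-type array, replicate 7 at 9.33, reached into the Tg2576 range, and the difference was -0.26 ± 0.06 (adjusted p = 0.153).

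Irf2bpl, a nuclear protein gene of neurons, was lower by 0.26 in its brightest probe set (levels 9.95, 10.03 and 10.23 against 10.18, 10.32 and 10.49; adjusted p = 0.119), but its next probe set differed by 0.03 in the other direction. Qdpr, which recycles the tetrahydrobiopterin cofactor, stood at -0.21 ± 0.05 (adjusted p = 0.175). Ednrb, the endothelin receptor of astrocytes, stood at -0.32 ± 0.09, and Hipk2, a nuclear kinase, at -0.20 ± 0.05. The other 6 of the 12 lower genes were Mybpc3 (-0.30), Lgr6 (-0.33), Accs (-0.24), Renbp (-0.26), Adamtsl4 (-0.35) and Mrpl52 (-0.22). Over the alternative settings the Mrpl52 difference ran from -0.27 to -0.00445. Mybpc3, Lgr6 and Adamtsl4 were dim, with wild-type means of 6.12, 6.51 and 6.66 where the filter lay at 5.91. Besides Qk, the genes with every Tg2576 array below every wild-type array were Pls1 (-0.26), Oxnad1 (-0.28) and Tsc22d1 (-0.08), which makes 4 in all (0.0309% of those tested).

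**Figure D4:**
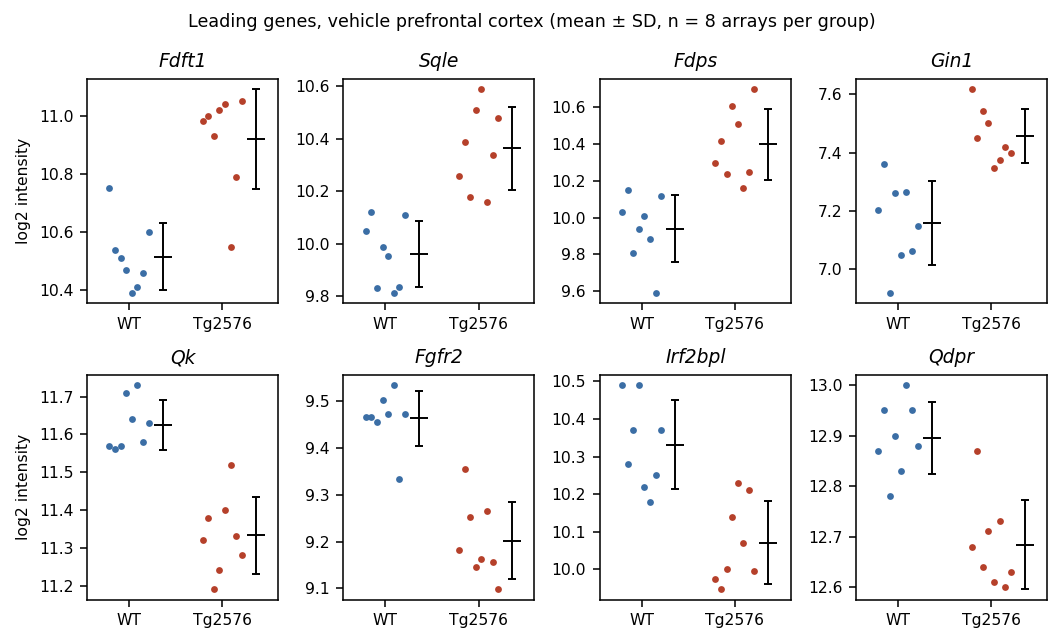
Log2 intensity (vertical axis) on each array of wild-type (blue) and Tg2576 (red) vehicle prefrontal cortex for 4 genes with a higher and 4 with a lower Tg2576 mean; each point is 1 array in replicate order and the black bar is the mean ± SD of 8 arrays. Sqle, Fdps and Qk do not overlap between genotypes, and Fdft1, Gin1, Fgfr2, Irf2bpl and Qdpr overlap.

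Markers of glia and vessels showed smaller differences. In bulk tissue, fewer cells of a type and less RNA per cell cannot be told apart. Oligodendrocyte and myelin genes were lower in mean for all 14 genes tested, with a median of -0.15. Only Mbp, the myelin basic protein (-0.16 ± 0.06), and Olig1, a transcription factor of the lineage (-0.16 ± 0.08), had an unadjusted p under 0.05, where 3.27% of all genes were lower. The list's mean level was 9.65, 10.08 and 10.47 in Tg2576 against 9.95, 10.18 and 10.51 in wild-type mice, so the groups overlapped widely. In replicates 1 to 4 the median was -0.0556 and in replicates 5 to 8 it was -0.252, and without Tg2576 replicate 7 it was -0.0964. Without the 3 arrays with high striatal markers it was -0.114. With the signal range as a covariate the median was -0.212. In that fit 5 of 14 genes were lower at an unadjusted p under 0.05, against 5.39% of all genes. In vehicle hippocampus all 14 were lower as well (median -0.15), and in the PF-04447943 groups 13 of 14 were (median -0.075).

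Of 15 astrocyte genes 11 were lower, with a median of -0.109, and 4 were lower at an unadjusted p under 0.05, where 3.27% of all genes were. These were Gja1, an astrocytic gap junction gene (-0.21 ± 0.07), Fgfr3 (-0.20 ± 0.07), Glul, glutamine synthetase (-0.25 ± 0.09), and S100b (-0.17 ± 0.07). Gfap, which marks reactive astrocytes, was at 0.17 ± 0.26. Without the 3 arrays with high striatal markers the median was -0.0517 and 2 genes were lower at an unadjusted p under 0.05, where 5.14% of all genes were. Without wild-type replicate 2 the median was -0.0608. With the signal range as a covariate it was -0.135. In that fit 7 of 15 were lower at an unadjusted p under 0.05, against 5.39% of all genes, and 1 passed the correction. In the PF-04447943 groups the astrocyte median was -0.124 and in vehicle hippocampus -0.0913.

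Microglial markers pointed the other way. Of 13 homeostatic microglia genes 12 had a higher mean, with a median of 0.14, where 67.6% of all genes lay above 0. Siglech, a microglial lectin, was higher by 0.21 ± 0.10 and Itgam, the CD11b integrin, by 0.31 ± 0.15, and these 2 of the 13 had an unadjusted p under 0.05, where 8.82% of all genes were higher. The complement genes C1qa, C1qb and C1qc were at 0.17 ± 0.10, 0.26 ± 0.17 and 0.19 ± 0.17. The list's level was 8.90, 9.09 and 9.37 in Tg2576 against 8.61, 8.999 and 9.19 in wild-type mice, and only Tg2576 replicates 2 and 4 lay above the wild-type range. Markers of microglia near amyloid had a median of 0.00543 over 12 genes, and of these Lyz2 (0.41 ± 0.19) had an unadjusted p under 0.05, while Apoe, listed among lipid efflux genes, was at -0.14 ± 0.07. Lyz2 was highest on Tg2576 replicates 6 and 2 (8.62 and 8.37), where its paralogue Lyz1 (9.12 and 8.84) and the neutrophil genes S100a8 (9.44 and 7.97) and S100a9 (8.93 and 8.09) were highest too. Without replicate 6 the Lyz2 difference was 0.30, and without replicate 2 it was 0.337, with unadjusted p of 0.121 and 0.098 (limma). The part of blood cells in these values was not tested. With the signal range as a covariate the homeostatic median was 0.064 and no gene had an unadjusted p under 0.05. Without the 3 arrays with high striatal markers the homeostatic median was 0.146, with 13 of 13 above 0, where 70.7% of all genes were. Of these 13, 1 was higher at an unadjusted p under 0.05, against 14.6% of all genes. In the PF-04447943 groups the homeostatic median was 0.0253, and 0 of 13 were higher at that level, against 2.68% of all genes. In vehicle hippocampus the median was 0.0957, and 3 of 13 were higher, against 1.9% of all genes.

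Endothelial genes had a median of 0.129, with 11 of 13 above 0, where 67.6% of all genes were. At an unadjusted p under 0.05, 3 of the 13 were higher, against 8.82% of all genes. Vwf, the von Willebrand factor gene, had the largest difference (0.69 ± 0.21; adjusted p = 0.298), with levels of 7.05, 7.72 and 8.46 against 6.53, 7.07 and 7.69. Its highest arrays were Tg2576 replicates 6 and 2 (8.46 and 8.40), the same arrays that were highest in S100a8, S100a9 and Lyz2. Without replicate 6 the Vwf difference was 0.593, and without replicate 2 it was 0.601. Vwf passed the correction with array weights (limma, adjusted p = 0.049). Tek, the angiopoietin receptor, was at 0.27 ± 0.12 and Cldn5, a tight-junction claudin, at 0.19 ± 0.09. The list's median was 0.0165 with the signal range as a covariate and 0.038 in replicates 5 to 8 alone. Without the 3 arrays with high striatal markers it was 0.205, and 4 of 13 genes were higher at an unadjusted p under 0.05, where 14.6% of all genes were. In the PF-04447943 groups it was 0.0128 and in hippocampus 0.0107.

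**Figure D5:**
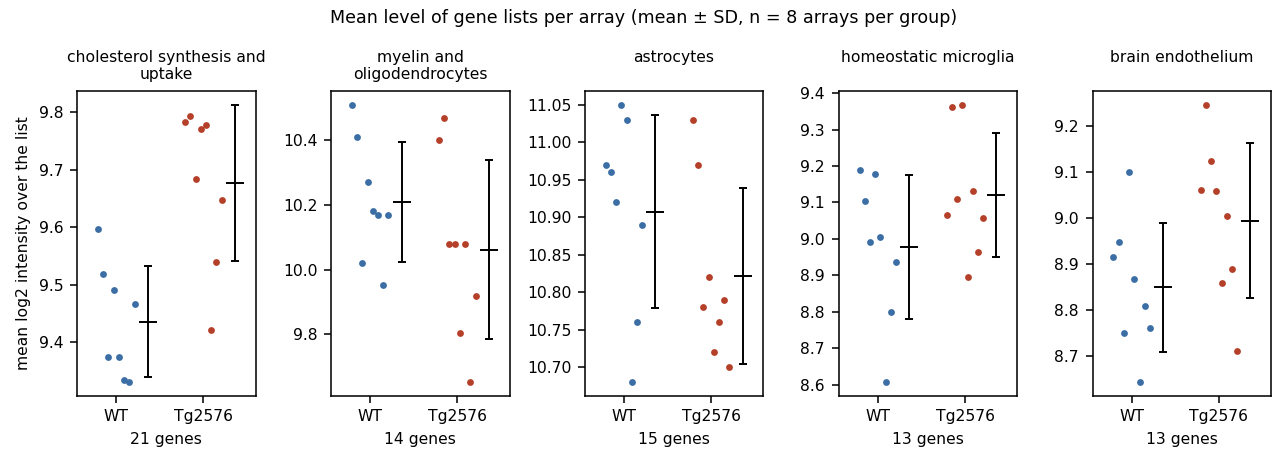
Mean log2 intensity per array (vertical axis) over 5 gene lists in wild-type (blue) and Tg2576 (red) vehicle prefrontal cortex; each point is 1 array in replicate order and the black bar is the mean ± SD of 8 arrays. In the cholesterol panel 6 of 8 Tg2576 arrays lie above the highest wild-type array at 9.60, and in the other panels the groups overlap widely.

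The genes nearest to the transgene and the drug target were measured with mouse probe sets, whose match to the human transgene is not given in the sources used here. The brightest App probe set was at 13.87 ± 0.02 on the Tg2576 arrays against 13.93 ± 0.06 on the wild-type arrays (SD, n = 8 each), a difference of -0.06 ± 0.04. The next App probe set was at 13.01 ± 0.04 and 12.92 ± 0.05, a difference of 0.09 ± 0.04 (limma, unadjusted p = 0.019). All 8 Tg2576 arrays lay above the wild-type mean there. The other 2 App probe sets lay below the filter. These probe sets therefore gave no check of genotype, and the array labels were taken as they stand. Prnp, the prion protein gene of the mouse itself, differed by -0.02 and 0.08 in its 2 probe sets. Pde9a, the target of the inhibitor, was at 7.66 ± 0.11 and 7.64 ± 0.21, a difference of 0.01 ± 0.07 (adjusted p = 0.949). The 13 genes of the amyloid precursor family and its secretases were each read from their brightest probe set. Only Aplp1, an App paralogue, had an unadjusted p under 0.05 in these probe sets (-0.08 ± 0.03). Bace1, beta-secretase, was at 0.12 ± 0.09 and Psen2, of the gamma-secretase complex, at 0.04 ± 0.07.

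Neuronal gene groups held few genes with an unadjusted p under 0.05, a level at which 8.82% of all genes were higher and 3.27% lower. Activity-regulated immediate early genes had a median of -0.0895 over 23 genes with wide variation between arrays. Jun was higher by 0.37 ± 0.12 and Egr4 lower by 0.28 ± 0.12 at an unadjusted p under 0.05, and the list's level ran from 8.13 to 9.49 in Tg2576 and from 8.62 to 9.56 in wild-type mice. Of 20 glutamate receptor genes Grik3 (-0.31 ± 0.11) and Grm3 (-0.16 ± 0.07) were lower at that level, and of 10 GABA receptor genes Gabrg3 was higher (0.35 ± 0.11). The 20 genes of postsynaptic scaffolds, the 20 of presynaptic release and the 19 potassium channel genes held no gene with an unadjusted p under 0.05, with medians of 0.0245, 0.042 and 0.0604. Of 19 clock genes Clock (0.21 ± 0.06) and Arntl (0.22 ± 0.09) were higher and Dbp, an output gene, lower (-0.34 ± 0.17). These differences were larger in replicates 1 to 4 than in 5 to 8, and the change between them was not tested. In replicates 1 to 4 Dbp was at -0.764, Arntl at 0.389 and Clock at 0.262, and in replicates 5 to 8 they were at 0.0818, 0.046 and 0.159. Of 20 genes of oxidative phosphorylation, Ndufs1 (0.12 ± 0.05), Ndufs3 (0.08 ± 0.04) and Uqcrfs1 (0.09 ± 0.05) were higher, with a list median of 0.0436 that lay close to that of all genes.

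The vehicle comparison was set against the same comparison in the other groups by tests of the difference. Against the PF-04447943 groups no gene passed the correction, and 428 had an unadjusted p under 0.05 (3.31%). The 5 smallest p belonged to Mrpl52 (a mitochondrial ribosome protein; -0.22 under vehicle and 0.10 under the inhibitor), Grik3 (a kainate receptor; -0.31 and 0.32), Akap13 (a kinase anchor; 0.20 and -0.09), E130317F20Rik (-0.22 and 0.10) and Irf2bpl (-0.26 and 0.02). Against vehicle hippocampus no gene passed either, and 441 had an unadjusted p under 0.05 (3.4%). This test takes the arrays of both regions as separate mice. With arrays of the same group and number taken as 1 mouse, as a random block, 414 genes had an unadjusted p under 0.05 and none passed. The correlation fitted within these blocks was -0.0222, so the block changed the fit little. That value is fitted over all genes and does not settle whether numbers mark mice. Pttg1 and Cap1 matched between the regions at every number, with a largest gap of 0.367. With the arrays as separate mice, the smallest p belonged to Mcu (0.19 in prefrontal cortex and -0.08 in hippocampus), Cenpo (-0.05 and 0.27), Ppat (0.14 and -0.23), Nfatc2ip (0.20 and -0.09) and Lmtk3 (-0.21 and 0.25). The inhibitor comparison had 476 genes at an unadjusted p under 0.05 (3.68%) and the hippocampal one 729 (5.62%), against 1563 here.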

How the data were processed

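Total RNA from microdissected tissue was hybridised to Affymetrix whole-genome mouse arrays. The deposited values are linear intensity values for 45101 probe sets, and the submitters' processing notes name RMA as the tool with which the authors made them. Its version is not given in the sources used here. They were converted to log2. Of the probe sets, 34945 carried 1 gene symbol in the platform annotation, 932 several and 9160 none, and 64 were controls. Each gene was read from its brightest probe set over all arrays, and genes below the 40th percentile of probe sets (log2 5.91) were left out. limma 3.58.1 (R 4.3.3) fitted the 4 prefrontal groups together, with Benjamini-Hochberg adjustment over all genes. The hippocampal fit used 12966 genes and the fit of both regions 12954. Array number limits the precision.

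Members and gene lists were chosen with earlier results of these data known. Named are the 12 genes of smallest p in each direction, the tested cholesterol list, App, Prnp and Pde9a, up to 4 genes per other list with an unadjusted p under 0.05, up to 12 genes without overlap between groups and 5 per interaction. Prmt9 and the list members given with an unadjusted p above 0.05 were named after their values were seen, as were Pttg1, Cap1, Lyz1, S100a8 and S100a9. Alternatives covered filters, probe set choice, scaling, covariates, blocks and each array left out.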

Additional observations from a re-analysis of the deposited data

Results flagged for a closer look

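Values that stood apart from the other 7 arrays of their group were looked for over 270 sets of 8 arrays, and 19 were found (7.04%), where chance gives about 1 in 20. Wild-type replicate 5 held 8 of the 19. It was lowest in excitatory cortical neuron markers (10.10, next 10.92), presynaptic vesicle release (11.55) and Grm3 (10.64). It was highest in cyclic GMP signalling (9.99), Ngfr (7.64, next 6.42), Mrpl52 (10.25), Scd2 (13.62) and Pde9a (8.11, next 7.75). This array also had the highest striatal marker level, and the part of the dissection in these values was not tested.

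Wild-type replicate 7 was lowest in Fgfr2 (9.33) and Ndufs3 (11.76) and highest in Oxnad1 (9.37). Other wild-type values that stood apart were Aplp1 in replicate 6 (13.61), Cenpo in replicate 2 (5.74), Pmvk in replicate 1 (9.29) and the level of olfactory bulb and neuroblast markers in replicate 2 (8.30). In Tg2576, replicate 1 was highest in Secisbp2 (8.72), Tm7sf2 (9.27) and glucocorticoid response genes (9.89), and replicate 8 was lowest in splicing regulators (10.64).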

How the results depend on the processing

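No gene passed the correction without a filter, with a stricter filter, on every probe set, with median centring, a trended prior, the 16 arrays alone, replicates 5 to 8 alone, and with RNA quality or striatal markers as a covariate. The count was 1 with the mean of probe sets, 3 with quantile normalization, 29 with array weights, 11 with the signal range as a covariate, 17 with replicates 1 to 4 against 5 to 8 as a block and 1 in replicates 1 to 4 alone (Tubb2b). It was 0 at an adjusted p under 0.10. Leaving out single arrays gave 0 to 3: Fdft1, Gin1 and Qk without Tg2576 replicate 6, and Gin1 without wild-type replicate 2. The count at an unadjusted p under 0.05 was 2912 on every probe set, 3171 with array weights, 2525 with the RNA quality covariate, 2593 with the block of replicates 1 to 4 against 5 to 8, 694 in replicates 5 to 8, 2555 without the 3 arrays high in striatal markers (chosen after seeing the data, as was the striatal covariate), and 974 to 2253 with single arrays left out (974 without Tg2576 replicate 1, 1014 without wild-type replicate 7). The cholesterol median was 0.103 with the signal range covariate and 0.199 to 0.282 with single arrays left out. The cause of these moves was not tested.

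Whether a replicate number marks a pair of mice is not in the labels. Of 8 same-number correlations of Tg2576 and wild-type deviations 5 exceeded 0.1 (-0.22 to 0.56), and 3 of 8 arrays matched their own number best. These values do not decide it, because some numbers matched and others did not. With the replicate block 6 genes passed, among them Fdft1, Fdps and Nsdhl of the cholesterol list (adjusted p = 0.0453 each), and 2466 had an unadjusted p under 0.05. The signal range difference was 0.148 in replicates 1 to 4 (exact permutation p = 0.0286) and 0.0699 in replicates 5 to 8, a split added after seeing the data. Neither interaction had a gene past the correction under any alternative. Pde9a turned to -0.0385 (quantile normalization), -0.00648 (signal range) and -0.00903 (RNA quality), Sc5d to -0.0753 (signal range) and -0.291 (replicates 5 to 8), Dbp to 0.0818 (replicates 5 to 8) and the proteasome gene Psmc6 (0.11) to -0.0649 (mean of probe sets). With single arrays left out, Sc5d ran from -0.0213 to 0.119 and Pde9a from -0.0146 to 0.0793.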

Other observations

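Pttg1, which encodes securin, and Cap1, an actin regulator, had levels that fell into separate clusters within a genotype. Pttg1 was between 8.52 and 8.89 in wild-type replicates 3, 4 and 6 and 11.26 or above in the other 5, and in Tg2576 it was 8.63 in replicate 6 and 11.61 or above in the other 7. Cap1 was below 10 in 3 wild-type arrays (replicates 1, 2 and 4) and in no Tg2576 array, where it ran from 10.48 to 11.34. In vehicle hippocampus both genes lay on the same side of 10 as in prefrontal cortex for all 8 replicate numbers of each genotype, and the largest gap between regions at a number was 0.367. The labels do not say whether arrays of 1 number came from 1 mouse. The line at 10 was drawn after the values were seen.

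S100a8 and S100a9, which encode calprotectin of neutrophils, reached 9.44 and 8.93 in Tg2576 replicate 6 and 7.97 and 8.09 in replicate 2, and the wild-type arrays ended at 6.76 and 6.59.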
